A study of Homo sapiens with 14 samples.

Results

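Regions bound by GATA3 at the ends of protein-coding genes were examined in chromatin immunoprecipitation followed by sequencing (ChIP-seq) from MDA-MB-231 cells, a line grown from a human breast cancer that lacks estrogen and progesterone receptors and HER2 amplification. Peaks of all 12 lists, 433307 in total, formed 78999 regions once those with at least 1 bp in common were joined. A library called a region if one of its own peaks fell in it. A gene-end region was one whose centre lay within 1 kb of either end of a protein-coding gene span and that 2 or more libraries called. The rule gave 3448 gene-end regions among the 60409 regions called by 2 or more libraries, or 5.71%, and the other 56961 regions served as the comparison. A further 1509 regions at gene ends were called by 1 library and were not included. Scores played no part in the choice of members, which rested on position and on the number of calls over all 12 libraries, 8 of them mutant. Some members thus passed through 1 group alone, as did 73 that both A442M-FLAG libraries and no other called. Counts of calls by group are not independent of this choice.

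The 6 groups were A442M with FLAG (A442M-FLAG), G444E with FLAG (G444E-FLAG), wildtype with FLAG (WT-FLAG), A442M, G444E and wildtype (WT), each of the last 3 without a tag, with 2 libraries each. A442M and G444E are point mutations of GATA3, and the FLAG peptide sits on the C-terminal end of the protein, where the design text says it stabilises GATA3 whatever the mutation. All cells were otherwise untreated, were harvested on day 3, and gave chromatin for one antibody against GATA3, so tagged and untagged libraries share the antibody. Nothing in the labels says how GATA3 was introduced, whether a line was a clone, or whether replicates were separate cultures. The p-values therefore measure the spread between these libraries, which may be technical. Cells with an empty vector were not analysed here, so no list without introduced GATA3 stands beside the values. The number of reads is not given in the sources used here, so depth is unknown. The lists held between 25248 and 51694 peaks.

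GATA3 is a zinc-finger transcription factor that specifies luminal breast epithelium and, in the immune system, T cells. It recognises the letters GATA with a flanking A or T, and is known to act largely from enhancers away from promoters. Gene starts hold the promoter, where RNA polymerase is loaded and where chromatin is open in many active genes. Many human promoters are rich in G, C and CpG, and a box of the letters GGGCGG there is bound by factors of the SP and KLF families.

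Of the 3448 gene-end regions, 2129 (61.7%) lay nearer to the start of a gene and 682 (19.8%) nearer to its far end. For 637 regions (18.5%) the side was not assigned, because a strand was at hand for 15841 of 20033 protein-coding genes. The annotation used gives gene spans only, so members were placed neither in exons nor in introns or untranslated regions. The median region width was 565.5 bp at gene ends and 529 bp elsewhere. A region was named by the genes whose ends lay within the window, which does not make them targets.

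Promoter sequences show the DNA before the gene starts at some of these regions, which can cover only part of a window. The first 4 belong to the strongest gene-end regions, called in all 12 libraries. The last 3 belong to regions that both libraries of one group called and neither library of another did. Each is the 250 bases before the gene's start, 5′ to 3′ on the gene's strand, from RefSeq, GRCh38.p14. Capitals mark a GATA motif (AGATA or TGATA followed by A or by G) or an AP-1 motif (TGANTCA) on either strand, and a window without capitals holds none of these letters.
PDZK1: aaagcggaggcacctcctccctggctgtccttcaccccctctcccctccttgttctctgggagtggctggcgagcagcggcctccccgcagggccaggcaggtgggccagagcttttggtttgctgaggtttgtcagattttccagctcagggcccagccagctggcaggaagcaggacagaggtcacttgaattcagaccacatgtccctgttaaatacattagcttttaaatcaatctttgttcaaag
NEMF: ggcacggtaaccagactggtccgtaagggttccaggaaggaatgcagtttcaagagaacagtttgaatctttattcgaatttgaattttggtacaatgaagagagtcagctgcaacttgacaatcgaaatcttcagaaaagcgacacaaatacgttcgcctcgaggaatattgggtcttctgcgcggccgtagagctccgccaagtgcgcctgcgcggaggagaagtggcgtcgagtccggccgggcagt
ATF6: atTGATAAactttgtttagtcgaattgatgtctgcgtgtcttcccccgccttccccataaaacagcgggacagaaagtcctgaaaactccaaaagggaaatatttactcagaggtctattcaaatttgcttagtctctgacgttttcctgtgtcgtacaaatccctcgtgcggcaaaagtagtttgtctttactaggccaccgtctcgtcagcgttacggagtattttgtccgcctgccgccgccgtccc
THSD4: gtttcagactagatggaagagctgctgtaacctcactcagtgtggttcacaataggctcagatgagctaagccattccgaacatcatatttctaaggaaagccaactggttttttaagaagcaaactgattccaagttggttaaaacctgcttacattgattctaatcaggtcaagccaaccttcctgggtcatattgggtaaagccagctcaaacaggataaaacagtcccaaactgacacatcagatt
SPRR3: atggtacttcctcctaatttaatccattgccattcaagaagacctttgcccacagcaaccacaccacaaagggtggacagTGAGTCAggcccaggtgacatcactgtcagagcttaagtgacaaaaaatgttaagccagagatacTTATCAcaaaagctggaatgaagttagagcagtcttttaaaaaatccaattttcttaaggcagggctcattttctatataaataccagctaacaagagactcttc
IRF9: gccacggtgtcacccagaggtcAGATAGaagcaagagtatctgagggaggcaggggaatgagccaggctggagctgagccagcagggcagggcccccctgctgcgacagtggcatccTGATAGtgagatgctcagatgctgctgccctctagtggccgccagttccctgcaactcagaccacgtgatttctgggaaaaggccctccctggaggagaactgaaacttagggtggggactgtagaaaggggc
RIGI: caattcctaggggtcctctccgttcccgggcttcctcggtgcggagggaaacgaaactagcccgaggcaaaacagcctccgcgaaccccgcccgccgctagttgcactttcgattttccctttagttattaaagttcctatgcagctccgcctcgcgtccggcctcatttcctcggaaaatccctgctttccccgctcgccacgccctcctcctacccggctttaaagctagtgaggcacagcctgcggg

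The windows lie at chr1:145707401-145707650 on the minus strand for PDZK1, chr14:49852789-49853038 on the minus strand for NEMF, chr1:161766070-161766319 on the plus strand for ATF6 and chr15:71096644-71096893 on the plus strand for THSD4. Those of SPRR3 and IRF9 lie at chr1:153001499-153001748 and chr14:24161015-24161264, both on the plus strand, and that of RIGI at chr9:32526197-32526446 on the minus strand. Of the 4 strong promoters, the window of ATF6 alone held a GATA motif. It lay outside the called region, which covered 197 of the 250 bases of that window. SPRR3 had 1 GATA and 1 AP-1 motif, IRF9 had 2 GATA motifs, and RIGI had neither, with 1 GC box and 22 CpG. THSD4 and SPRR3 had windows poor in CpG, with 1 and 0, while NEMF had 19.

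Promoters under gene-end regions were richer in GC boxes than promoters in general, and this was seen in those called by few libraries. A gene-end region overlapped the 250-base window of 1517 of 15841 genes. A GC box (GGGCGG, either strand) was present in 74.5% of the 858 windows under regions called by 2 to 5 libraries, in 61.2% of the 472 under regions called by 6 to 11, and in 56.1% of the 187 under regions called by all 12, against 56.0% of all 15841 windows. The GATA motif ran the other way, at 15%, 22.5% and 24.6% in the same 3 classes and 17.7% of all windows. Median GC content was 66.6%, 63.6% and 60.8% in the 3 classes and 62.4% over all windows. The AP-1 motif was present in 4.90%, 6.14% and 8.02% of windows and the motif of TEAD factors (GGAATG) in 8.39%, 11% and 12.3%, against 5.04% and 10.1% of all windows. For the ETS motif (CCGGAAG) the shares were 15.5%, 14.2% and 12.3% in the 3 classes and 11.8% over all windows. The GATA and AP-1 motifs share the letters TGA, the ETS and TEAD motifs the letters GGAA, and each motif was counted by itself on both strands. These shares are descriptions without a test, and a match is only a run of letters.

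Within each library, regions at gene ends were weaker than the rest. A peak's score was turned into its percentile within its own list, with 100 for the strongest, and a region took the percentile of its strongest peak. The median percentile of the gene-end regions a library called was between 34.9 and 45.8, and that of its other regions between 51.7 and 56.2. The ranges do not overlap, and the gene-end value was lower in 12 of 12 libraries. The mean difference was -14.8 ± 3.15 percentile points (SD, n = 12 libraries; exact sign-flip permutation test, two-sided, p = 0.000488, the smallest that sign changes over 12 libraries can give). With every list cut to the length of the shortest, the mean difference was -8.19 points, with the same p. The libraries call many of the same regions, so the 12 differences are not independent of each other.

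Within gene ends, starts were weaker than far ends. Regions nearer a start had a median percentile between 29.8 and 42.7, and those nearer a far end between 44.1 and 54.5. Starts were lower than far ends in 12 of 12 libraries, and the starts minus the far ends averaged -13.5 ± 4.32 (SD, n = 12 libraries; exact sign-flip permutation test, two-sided, p = 0.000488), and -8.68 with lists of equal length. The gap was widest in the 2 A442M-FLAG libraries, at -23.4 and -20.0 points, and lay between -15 and -9.09 in the other 10 libraries. In A442M-FLAG the starts had medians of 31.1 and 29.8 and the far ends 54.5 and 49.8.

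Each list was also cut into 10 equal parts by score, and the same order appeared at this finer grain. Gene ends took 9.27% ± 2.78 of the peaks in the weakest part and 3.15% ± 0.45 in the strongest (SD, n = 12 libraries). Starts took 6.22% ± 2.23 of the weakest part and 1.46% ± 0.35 of the strongest, while far ends took 1.31% ± 0.26 and 1.06% ± 0.086. In the weakest part, the gene-end share was highest in replicate 1 of WT-FLAG (14.9%) and of G444E-FLAG (12.9%), and lowest in replicate 2 of untagged WT (5.19%).

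**Figure D1:**
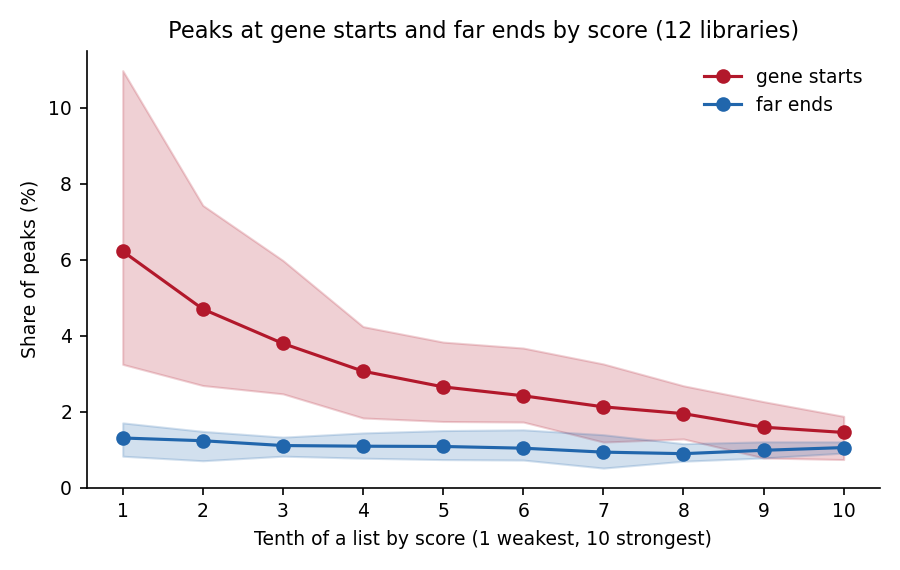
Share of each list's peaks that lay at a gene start or a far end (percent, y axis) by part of the list in order of score (x axis, 10 equal parts, 1 weakest, 10 strongest). Lines are means and bands the lowest and highest of 12 libraries; the share at starts was 6.22% in the weakest part and 1.46% in the strongest, and that at far ends 1.31% and 1.06%.

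Few libraries called a typical gene-end region. The median was 5 of 12 libraries at gene ends and 6 elsewhere. All 12 libraries called 415 gene-end regions (12%), against 18.5% of the other regions, and 2 or 3 libraries called 35.8%, against 29.0% of the others. At starts, 235 regions (11%) were called by all 12 libraries, and at far ends 100 (14.7%). Members called by all 12 libraries had a median percentile of 74.1 and those called by 2 or 3 libraries one of 13.6, against 79.4 and 22.8 for other regions with the same numbers of calls. At the edges of the rule, the 250 members with a centre in the last 0.1 kb of the window had a median percentile of 31.8 and the 235 regions with a centre in the next 0.1 kb one of 30.0. The 759 members called by 2 libraries had a median of 12.6, and the 1509 gene-end regions called by 1 library one of 8.16.

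**Figure D2:**
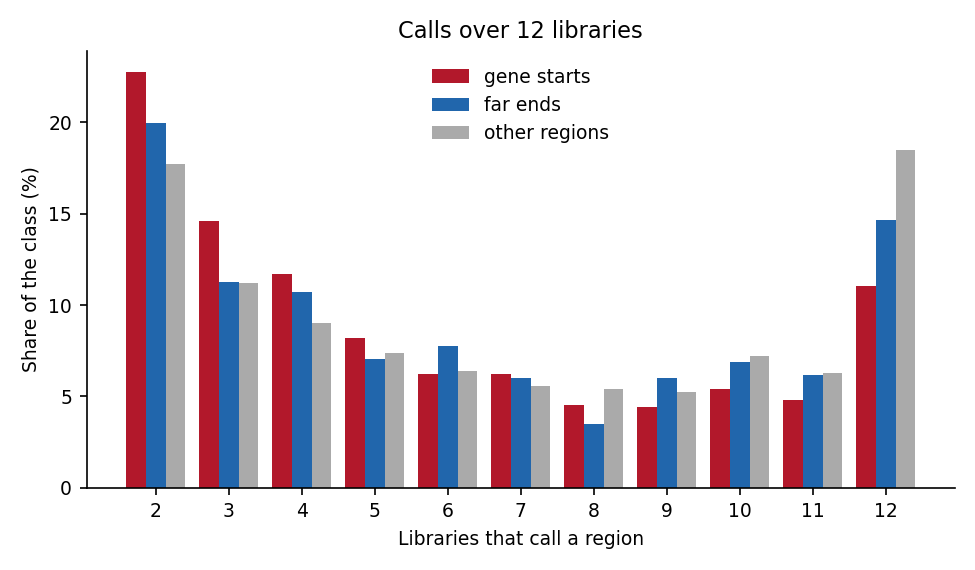
Share of regions (percent, y axis) by the number of libraries that called them (x axis), for regions nearer gene starts, nearer far ends, and away from gene ends. Bars of one colour sum to the whole class; 11% of starts, 14.7% of far ends and 18.5% of other regions were called by all 12 libraries.

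Regions crowded around gene starts, and the crowding was stronger among regions that some libraries missed. The centre of a start region lay a median of 291 bp from the start, and 963 (45.2%) lay within 250 bp of it. Centres fell on both sides, with 1055 upstream and 1074 downstream. The 250 bp just before the start held 515 centres and the 250 bp just after it 448, against 120 at 1000 to 1250 bp upstream. Of the regions called by all 12 libraries, the same 3 intervals held 43, 27 and 18. The intervals at 250 to 500 bp before and after the start held 36 and 39 of these, so they rose near starts too. Far ends showed no such peak: the median distance was 481.5 bp and 162 of 682 (23.8%) lay within 250 bp. Neighbouring genes share some of these regions, since 387 members lay at the ends of 2 genes and 10 at the ends of 3 or more. Starts of genes on opposite strands shared 189 members, of which 18 were called by all 12 libraries.

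**Figure D3:**
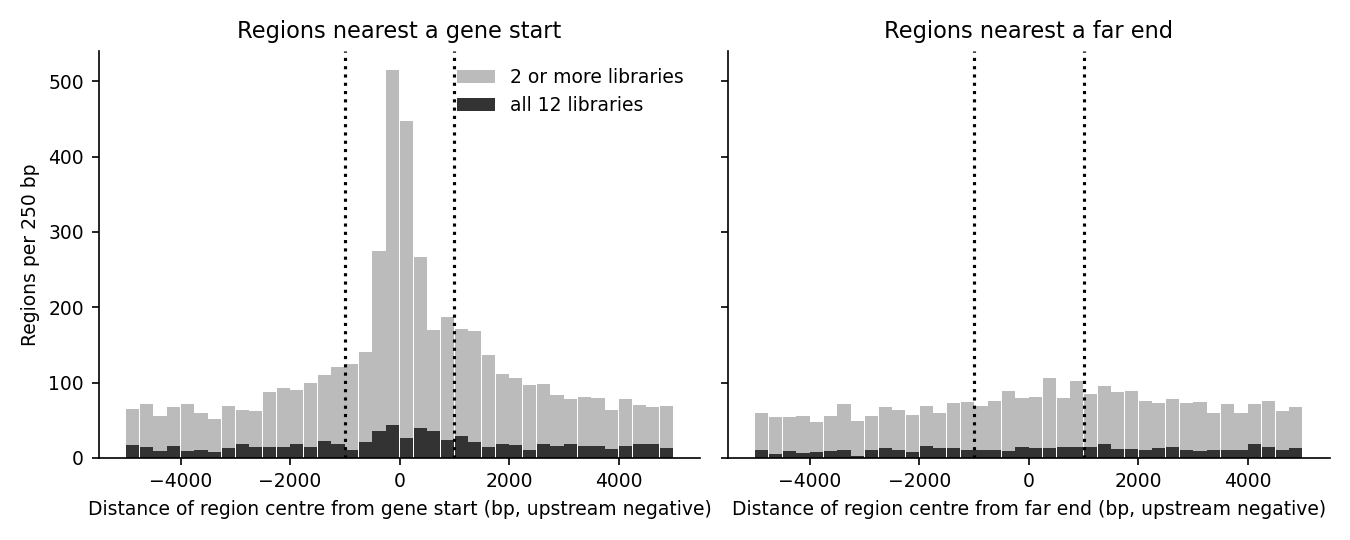
Number of regions per 250 bp (y axis) by distance of the region's centre from the nearest gene start (left) or far end (right) in bp, upstream negative, for regions called by 2 or more libraries and by all 12. Dotted lines mark the 1 kb window; the intervals on either side of the start held 515 and 448 regions, of which 43 and 27 were called by all 12 libraries.

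A gene-end region was present at 3529 of 20033 protein-coding genes (17.6%), and at 450 (2.25%) one was called by all 12 libraries. Of the 15841 genes with a strand, 2297 (14.5%) had a region at the start and 769 (4.85%) at the far end. Chromosome 19, which is dense in genes, had 17.6% of its regions at gene ends, and chromosome 13 had 2.83%. The share of genes with a member was 15.9% on chromosome 19 and 12.7% on chromosome 13.

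Among the strongest members, those called in all 12 libraries with the highest median percentile, both ends of genes were present. The region 243 bp from the far end of ECI2 (chr6:4114387-4116539), an enzyme of fatty acid breakdown, had a median percentile of 99.98. It reached at least 99.96 in the 10 libraries other than untagged WT, where it stood at 97.4 and 96.3. SP6 (chr17:47844118-47844756), a zinc-finger factor of the SP family, had percentiles from 99.9 to 99.99 in all 12 libraries. CFAP95 and SIGLEC10, the second a sialic acid receptor of immune cells, were lowest in untagged WT as well, at 96.0 and 97.6 for CFAP95 and 93.3 and 97.1 for SIGLEC10, against at least 99.18 and 98.5 in every other library. All of the far-end regions in this set except that of SRPK1 thus had their 2 lowest values in the untagged WT libraries. At SRPK1, a kinase of splicing factors, untagged WT had 99.26 and 99.16, the second the lowest of all. G444E replicate 2 also had 99.26 there.

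Regions of this set at starts whose lowest values were those of both A442M-FLAG libraries included NEMF, ATF6 and THSD4. At NEMF, a factor that clears stalled ribosomes, the percentile was 97.5 and 97.1 in A442M-FLAG and at least 99.08 in the other 10 libraries. At ATF6, a sensor of the unfolded protein response, it was 98.2 and 95.6 in A442M-FLAG, and between 98.6 and 99.8 in the others. At THSD4, a protein of the extracellular matrix, it was 97.1 and 93.2 in A442M-FLAG, and between 98.0 and 99.6 in the others. At PDZK1, a scaffold protein of epithelial membranes, A442M-FLAG had 99.2 and 98.8, and the others lay between 99.1 and 99.9, so the groups overlapped. These lists differ in length, and the A442M-FLAG lists were the longest of their replicate number, so a percentile compares ranks and not amounts of bound protein.

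The number of gene-end regions called was higher with the tag in every same-number pair, and did not pass the test. A442M-FLAG libraries called 2280 and 1542 gene-end regions, G444E-FLAG 2411 and 1342, and WT-FLAG 2554 and 1694. Untagged A442M called 1885 and 1465, G444E 1698 and 1178, and WT 1299 and 957. Arms overlapped, from 1342 to 2554 with the tag and from 957 to 1885 without it, with means of 1970.5 ± 507 and 1414 ± 341 (SD, n = 6 each). The difference of the mean log2 number was 0.47 (exact permutation test, two-sided, p = 0.0741, adjusted p = 0.556 over 12 contrasts). It was 0.59 among replicates numbered 1 and 0.36 among those numbered 2, higher in 6 of 6 pairs, and with labels exchanged only within a replicate number the p was 0.0313, the smallest that 64 arrangements allow, and the adjusted p 0.375. The lists as a whole were also longer with the tag in 6 of 6 pairs. With every list cut to the length of the shortest, the difference was -0.06, so the excess with the tag was not seen at equal length.

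The share of called regions that lay at gene ends differed by replicate number by more than by tag or mutation. In A442M-FLAG it was 5.07% and 3.90%, in G444E-FLAG 6.42% and 4.61%, in WT-FLAG 6.34% and 4.78%, in A442M 5.09% and 4.31%, in G444E 5.68% and 4.52%, and in WT 4.91% and 4.07%, with replicate 1 given first. Replicate 1 was higher in 6 of 6 groups, with a mean of 5.58% against 4.37% for replicate 2. Replicate 1 also had the longer list in 6 of 6 groups and the lower median percentile at gene ends in 6 of 6. What the numbers share is not given by the labels. The promoters that a library called followed the same split: their median GC content was between 62.8% and 65.2% in libraries numbered 1 and between 61.6% and 62.8% in those numbered 2, and a GATA motif was present in 18.6% to 23.3% of them in the first and in 23% to 25.5% in the second.

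**Figure D4:**
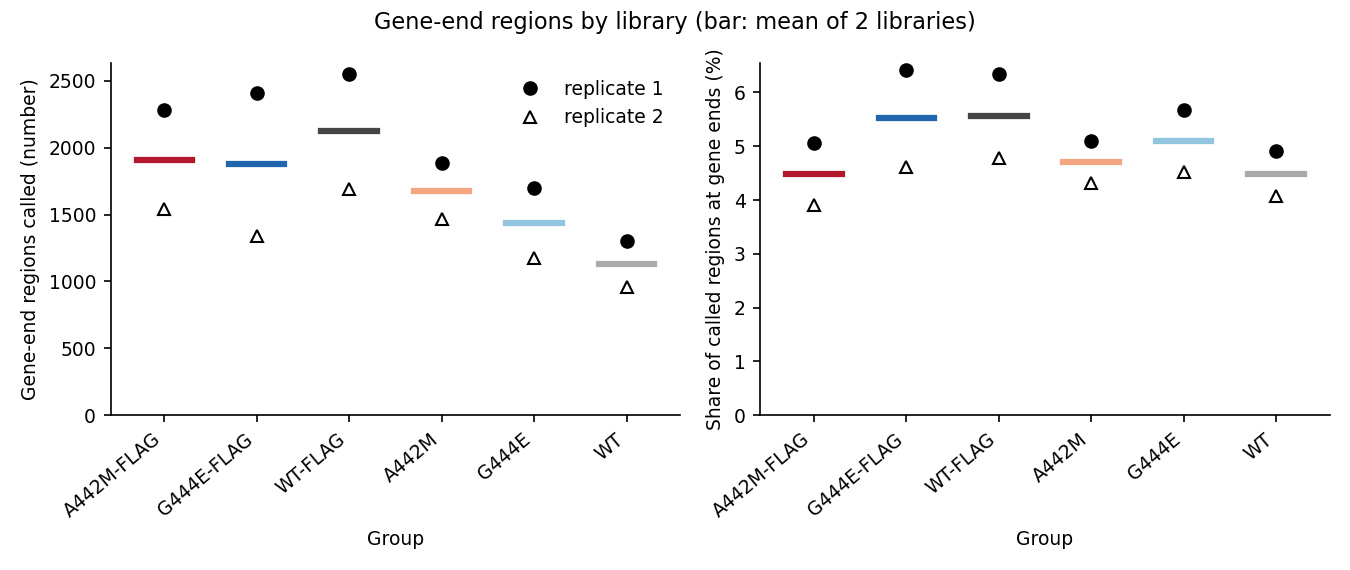
Number of gene-end regions called (left, y axis) and share of a library's called regions that lay at gene ends (right, percent) by group (x axis), with filled circles for replicate 1, open triangles for replicate 2 and bars for the mean of both. Replicate 1 lies above replicate 2 in every group; the share ran from 4.91% to 6.42% in libraries numbered 1 and from 3.90% to 4.78% in those numbered 2.

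No contrast between groups passed an adjusted p of 0.05 in the share at gene ends. FLAG libraries had a mean of 5.19% ± 1.0 and untagged libraries 4.76% ± 0.58 (SD, n = 6 each), a difference of 0.42 percentage points (exact permutation test, p = 0.417, adjusted p = 0.625). Mutant libraries had 4.95% ± 0.81 (n = 8) and WT libraries 5.03% ± 0.95 (n = 4), a difference of -0.075 points (exact permutation test, p = 0.893, also when adjusted). A442M minus WT was -0.43 points, G444E minus WT 0.28 points and A442M minus G444E -0.72 points, with unadjusted p of 0.611, 0.722 and 0.278 by the exact permutation test. A442M was below G444E in 4 of 4 same-number pairs. The difference for FLAG was 0.72 points among libraries numbered 1 and 0.13 among those numbered 2, and for A442M minus G444E it was -0.97 and -0.46. A p that misses the threshold does not show that the groups were alike.

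The strength of the gene-end regions that a library called did not pass either. The mean of the libraries' median percentiles was 37.3 ± 0.97 with FLAG and 39.4 ± 3.81 without (SD, n = 6 each), a difference of -2.02 points (exact permutation test, p = 0.204, adjusted p = 0.556). It was 37.4 ± 1.59 in mutants (n = 8) and 40.2 ± 4.16 in WT (n = 4), a difference of -2.72 points (exact permutation test, p = 0.116, adjusted p = 0.556). A442M minus WT was -1.88, G444E minus WT -3.56 and A442M minus G444E 1.68 points, none past an adjusted p of 0.556 by the exact permutation test. Untagged WT stood apart in these values, with medians of 40.6 and 45.8, while the other 10 libraries lay between 34.9 and 39.7.

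The mutants differed from WT more without the tag than with it. With the tag the mutants had a mean median percentile of 37.5 and WT one of 37.1, a difference of 0.34 points. Without the tag the mutants had 37.4 and WT 43.2, a difference of -5.77 points. The interaction was -6.11 points (exact permutation test after subtraction of the mean tag effect, two-sided, p = 0.0278, not adjusted). By the same test p was 0.0625 when tag labels were exchanged within a replicate number, so the call ends under the replicate block. It also ended without any 1 of 8 libraries, namely A442M replicate 1, G444E replicate 2, WT replicate 2, A442M-FLAG replicate 2 and both of G444E-FLAG and WT-FLAG. Without WT replicate 2 the interaction was -3.37 points, and with a window of 500 bp it was -3.99 points (exact permutation test, p = 0.352). For the share at gene ends the interaction was 0.97 points (exact permutation test, p = 0.343).

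Starts and far ends were not called alike by all groups. A442M-FLAG called 63.8% and 39.7% of the start regions and 74.9% and 62.2% of the far-end regions. G444E-FLAG called 71.3% and 37.1% of starts and 66.1% and 45.2% of far ends, and WT-FLAG 75.6% and 48.5% of starts and 66.9% and 54.3% of far ends. Untagged A442M called 54.2% and 39.8% of starts and 54.4% and 51.0% of far ends, G444E 49.1% and 31.6% of starts and 48.7% and 41.6% of far ends, and WT 37.1% and 26.2% of starts and 37.7% and 32.4% of far ends. A442M-FLAG thus had the highest share of far ends within each replicate number, and WT-FLAG the highest share of starts. Of all 60409 regions called by 2 or more libraries, A442M-FLAG also called the most within each replicate number, 44979 and 39526. WT-FLAG called 40287 and 35427 of them. The high share of far ends in A442M-FLAG is therefore not particular to far ends. Of the 682 far-end members, 38 were called by both A442M-FLAG libraries and no other, as were 20 of the 2129 start members. These became members through A442M-FLAG alone, which raises its shares by the rule itself, more so at far ends. Over the 12 libraries the starts minus the far ends averaged -5.12 points ± 8.42 (SD, n = 12; exact sign-flip permutation test, two-sided, p = 0.0532), with 3 libraries above 0. Without A442M-FLAG replicate 1 it was -6.43 (p = 0.0225), and without A442M-FLAG replicate 2 it was -6.55 (p = 0.00977), by the same exact permutation test.

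Peak width differed little between gene ends and other regions. Where a library had more than 1 peak in a region, their widths were summed. The median of this width in a library was between 340 and 472 bp at gene ends and between 314 and 477 bp in its other regions. The log2 ratio was 0.05 ± 0.07, with 7 of 12 libraries above 0 (SD, n = 12; exact sign-flip permutation test, two-sided, p = 0.0396). The call ended without any 1 of 5 libraries, namely replicate 1 of A442M, G444E and WT-FLAG and both of WT, where the ratio was between 0.0399 and 0.0460.

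For pairs of groups, gene-end regions that both libraries of one group called and neither library of the other did were counted as one-sided. With 2 against 2 libraries an exact permutation test cannot go below p = 0.333, so these counts carry no test, and each is set beside the same share of all 60409 regions. A442M-FLAG against WT-FLAG gave 116 gene-end regions called in A442M-FLAG (3.36% of members, background 7.8%) and 149 called in WT-FLAG (4.32%, background 2.06%). Over all regions the counts were 4713 and 1245, so the larger side was A442M-FLAG there and WT-FLAG at gene ends. Of the 116, 36 were starts and 59 far ends, and of the 149, 103 were starts and 18 far ends. The 116 include 73 regions that both A442M-FLAG libraries and no other called, 38 at far ends and 20 at starts. These 73 became members through A442M-FLAG alone, so the rule itself shapes this split. Likewise the 149 include 20 that both WT-FLAG libraries and no other called. Gene ends made up 2.46% of all regions one-sided to A442M-FLAG and 12% of those one-sided to WT-FLAG. With lists cut to equal length the gene-end counts were 42 and 145, against 2070 and 1525 over all regions. Among regions called by 3 or more libraries the gene-end counts were 43 and 129, against 1554 and 1140 over all regions.

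G444E-FLAG against WT-FLAG gave 26 called in G444E-FLAG (0.754%, background 0.608%) and 96 in WT-FLAG (2.78%, background 2.87%), of which 65 were starts and 10 far ends. Both shares were near the background. With lists of equal length the counts were 34 and 25, against 467 and 623 over all regions. The larger side thus turned to G444E-FLAG at gene ends but not over all regions. Without the tag, A442M against WT gave 191 called in A442M (5.54%, background 9.18%) and 15 in WT (0.435%, background 0.901%). With lists of equal length these were 65 and 66, against 2476 and 1444 over all regions. The excess in A442M was thus not seen at gene ends at equal length, while over all regions it remained. G444E against WT gave 175 in G444E (5.08%, background 6.65%) and 68 in WT (1.97%, background 4.78%). All 4 untagged shares were below the background.

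The tag was compared within each genotype in the same way. WT-FLAG against WT gave 494 gene-end regions called in WT-FLAG (14.3%, background 16.1%), 297 of them at starts, and 49 called in WT (1.42%, background 4.15%). A442M-FLAG against A442M gave 268 in A442M-FLAG (7.77%, background 14.1%) and 167 in A442M (4.84%, background 5.31%). Those in A442M-FLAG were 15.1% of far-end members and 5.64% of start members. They include the 38 far-end and 20 start members that both A442M-FLAG libraries and no other called. G444E-FLAG against G444E gave 92 in G444E-FLAG (2.67%, background 2.86%) and 16 in G444E (0.464%, background 0.561%). Equal list lengths gave 149 and 134 for WT-FLAG and WT, 96 and 185 for A442M-FLAG and A442M, and 30 and 28 for G444E-FLAG and G444E. Over all regions the counts at equal length were 4832 and 3931, 4104 and 3639, and 664 and 598, in the same order. At gene ends the excess in tagged libraries was thus not seen at equal length in A442M, where the untagged side was the larger. Over all regions the tagged side stayed the larger there. The comparisons with WT-FLAG, and those with WT, share those libraries.

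Peaks on unplaced sequences outside the chromosomes moved with some of these groups. Untagged WT had 110 and 84 of them and untagged A442M 75 and 57, while the other 8 libraries had between 14 and 24. Their part in the results on untagged WT and A442M was not tested.

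Some members share a pattern of calls. Every library except both untagged WT ones called 55 gene-end regions (1.6%, background 3.41%), with 23 at starts and 23 at far ends. Both A442M-FLAG libraries and no other called 73 (2.12%, background 5.23%), with 38 at far ends and 20 at starts. Every library except both A442M-FLAG ones called 12 (0.348%, background 0.281%), of which 7 were at starts.

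Among regions absent from untagged WT, 2 far ends were strong in all other libraries. At PRPH2 (chr6:42696531-42697656), a protein of photoreceptor discs, the percentile was 99.94 and 99.94 in A442M-FLAG, 98.2 and 98.3 in G444E-FLAG, 99.0 and 99.0 in WT-FLAG, 87.9 and 88.3 in A442M and 90.6 and 94.6 in G444E, with no call in WT. At CREB3L2 (chr7:137874092-137874999), a transcription factor held in the endoplasmic reticulum until cut, it was between 96.3 and 98.1 in the 6 tagged libraries and between 86.5 and 92.3 in untagged A442M and G444E, with no call in WT. Tagged libraries were higher than untagged ones at both genes without overlap. MCHR1, a receptor of melanin-concentrating hormone, and SLC46A1, a folate transporter, had the same pattern of calls, with tagged libraries between 89.8 and 96.4 for MCHR1 and between 76.2 and 98.7 for SLC46A1, against 66.7 to 88.1 and 66.5 to 76.8 in untagged A442M and G444E. PHF13, a reader of histone H3 methylated at lysine 4, and IQCJ were called in the same 10 libraries, with tagged and untagged values overlapping.

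Other members were called in both untagged WT libraries and in neither library of at least 1 other group, which was untagged A442M, untagged G444E or WT-FLAG. IL26, a cytokine, had a far-end region with 57.1 and 67.4 in WT and no call in the other 10 libraries. SPRR3 (chr1:153001431-153001919), a protein of the cornified envelope whose promoter held 1 GATA and 1 AP-1 motif, stood at 81.7 and 72.9 in WT, 78.5 and 62.1 in A442M and 46.9 in 1 A442M-FLAG library, with no call in G444E, G444E-FLAG or WT-FLAG. USF1, a factor that binds E-boxes, stood at 75.4 and 69.6 in WT and 56.3 and 51.2 in A442M, with 8.94 in 1 WT-FLAG library and no other call. OPN3, an opsin, had 78.5 and 79.3 in WT and 65.7 and 61.5 in A442M, with 1 weak G444E call at 4.83. SPRR3, USF1 and OPN3 were therefore called in both libraries of WT and A442M and in neither WT-FLAG library or only weakly there. Untagged WT and A442M are the groups with more peaks on unplaced sequences. CCDC102B and GALNT12 had the same pattern, and other members of these comparisons did not. IL26, ACSM4, UXT and PABPC1 had no call in A442M. PDCD1LG2, with no call in WT-FLAG, was called in both G444E libraries and in 1 A442M library.

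Regions that A442M-FLAG lacked included starts that were called widely elsewhere. At NIF3L1 and PPIL3, the second a peptidyl-prolyl isomerase, a shared region (chr2:200889342-200889751) had 89.9 and 56.4 in G444E-FLAG, 74.6 and 59.1 in WT-FLAG, 94.5 and 89.2 in A442M, 76.4 and 72.7 in G444E and 96.0 and 93.2 in WT, with no call in A442M-FLAG. LATS1, a kinase of the Hippo pathway, had a start region called in 9 libraries at 58.9 to 77.2 and in neither A442M-FLAG library. MARCHF6, a ubiquitin ligase of the endoplasmic reticulum, was called in the 10 libraries outside A442M-FLAG at 63.3 to 83.2, and its side was not assigned. The other starts named were called less widely. OGFRL1 had 95.8 and 93.3 in WT and 85.7 and 90.4 in A442M, against no call in A442M-FLAG. In G444E, G444E-FLAG and WT-FLAG only replicate 1 called OGFRL1. DDX41, an RNA helicase, had 77.5 and 78.5 in A442M and no call in A442M-FLAG. In G444E, WT, G444E-FLAG and WT-FLAG only replicate 1 called DDX41.

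On the other side, regions of A442M-FLAG that WT-FLAG lacked were at far ends in all 4 of those named. CYREN, a regulator of DNA end joining, had 73.2 and 66.9 in A442M-FLAG and no call elsewhere. The far end of VRK3, a kinase, had 77.1 and 84.3 in A442M-FLAG and at most 22.5 in the 3 other libraries that called it. DHX57 had 77.5 and 66.7 in A442M-FLAG and 31.8 in 1 G444E-FLAG library. FASTKD2, a mitochondrial RNA-binding protein, had 66.8 and 68.1 in A442M-FLAG and 14.8 in 1 A442M library.

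The 4 strongest members called in A442M-FLAG and not in A442M had calls with the tag in the other genotypes too. Of these, CARS1 and NDUFB3 had no call in G444E-FLAG replicate 2. ATP11B, a phospholipid flippase, had 97.6 and 95.0 in A442M-FLAG, 74.9 and 69.0 in G444E-FLAG and 80.6 and 69.4 in WT-FLAG, with no call in A442M or WT and 46.6 in 1 G444E library. MED20, a subunit of Mediator, had 90.2 and 95.5 in A442M-FLAG, 49.9 and 51.4 in G444E-FLAG and 65.1 and 76.8 in WT-FLAG, with no call in A442M or WT and 13.2 in 1 G444E library. CARS1 had 85.29 and 86.15 in A442M-FLAG, 47.3 in 1 G444E-FLAG library and 42.2 and 55.7 in WT-FLAG. NDUFB3 had 87.2 and 78.9 in A442M-FLAG, 31.8 in 1 G444E-FLAG library and 31.0 and 4.37 in WT-FLAG. Among members called in G444E-FLAG and not in G444E, YTHDF3, a reader of N6-methyladenosine in RNA, was called in all 6 tagged libraries, at 56.0 to 86.7. No untagged library called YTHDF3. MTHFD2L, a mitochondrial enzyme of folate metabolism from the same comparison, was called in all 6 tagged libraries at 62.5 to 88.2. Both A442M libraries called it too, at 46.2 and 59.4.

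Other regions separated G444E-FLAG from WT-FLAG or from untagged G444E. IRF9 and RNF31, the first a subunit of the interferon-activated complex ISGF3 and the second a ubiquitin ligase, share a region with 42.2 and 42.7 in WT-FLAG, 49.0 in 1 A442M-FLAG library and 37.5 in 1 G444E library, with no call in G444E-FLAG. RIGI, a sensor of viral RNA, had 39.8 and 35.0 in G444E and no call in G444E-FLAG, and its other 4 calls lay between 9.36 and 46.5. Of the regions in G444E-FLAG and not WT-FLAG, CFLAR, an inhibitor of death-receptor signalling, had 67.3 and 28.9 in G444E-FLAG, and UBP1 31.5 and 29.4.

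**Figure D5:**
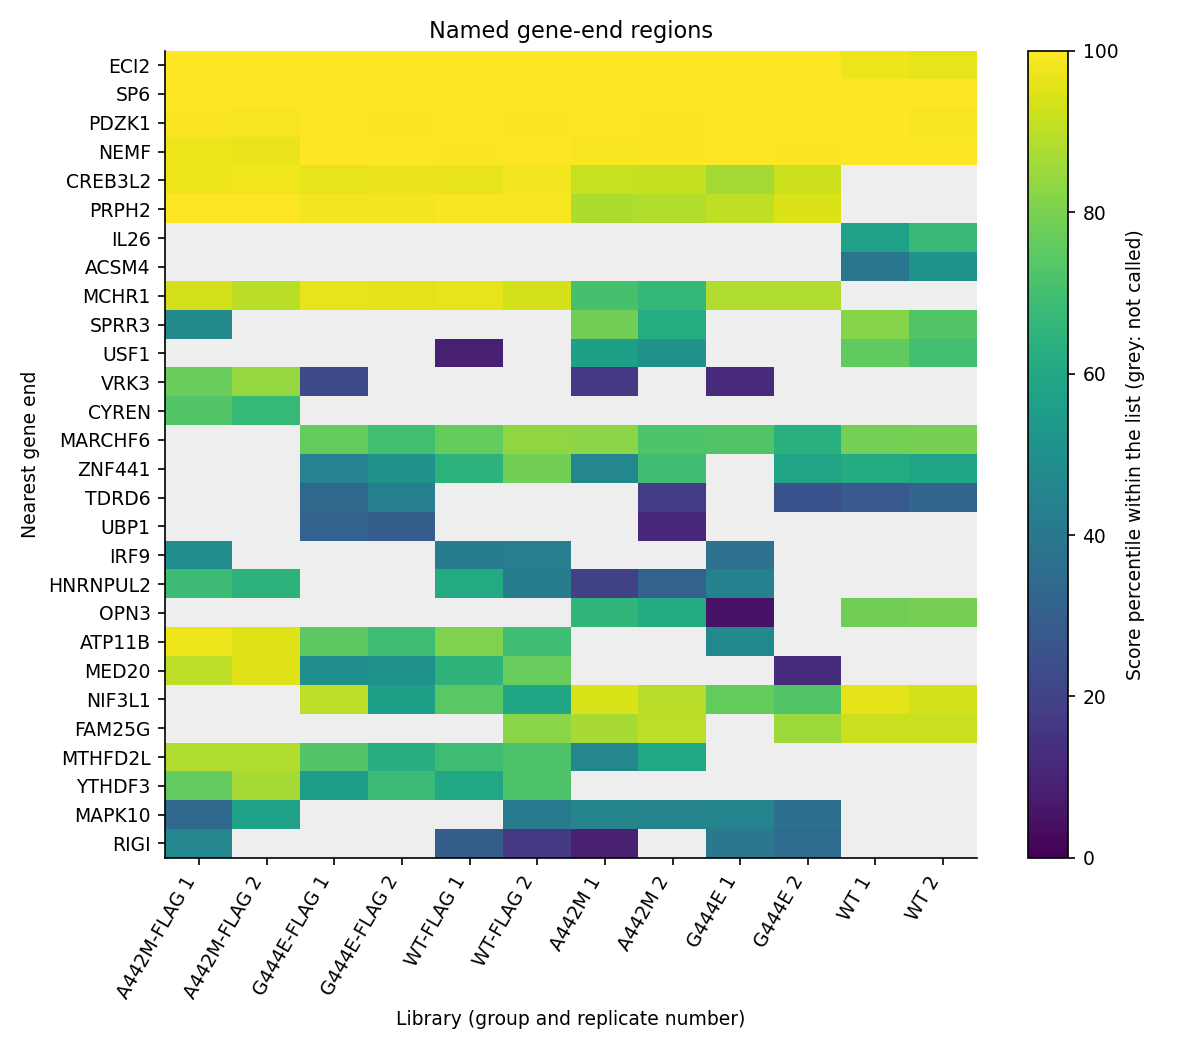
Score percentile within each list (colour, 0 to 100, grey where not called) for named gene-end regions (rows, by nearest gene) in each library (columns, group and replicate number). Rows are 4 of the strongest regions and the first 2 of each one-sided comparison; PRPH2 and CREB3L2 are grey in both WT libraries and NIF3L1 and MARCHF6 in both A442M-FLAG libraries.

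Single gene-end regions did not pass Fisher's exact test on calls after adjustment over all regions tested. Between 6 FLAG and 6 untagged libraries, 0 of 718 gene-end regions had an adjusted p under 0.05 (Fisher's exact test, lowest adjusted p = 0.104, background 0%), and the stratified exact test also gave 0. At an unadjusted p under 0.05, 57 were called more often with the tag (7.94%, background 11.3%) and 6 less often (0.836%, background 1.63%). Between 8 mutant and 4 WT libraries, 0 of 1662 passed (Fisher's exact test, lowest adjusted p = 1, background 0%), and 0 by the stratified exact test. Unadjusted, 6 were called more often in mutants (0.361%, background 0.206%) and 1 less often (0.0602%, background 0.105%). Even a complete split of 12 libraries gives a p too high to survive adjustment over 11777 or 26654 regions, unless many regions split completely. The counts of 0 therefore do not show that calls were alike.

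Gene lists gave a view by function, as counts of genes with a member, beside 17.6% of all protein-coding genes. GATA3 itself had 0 gene-end regions. Of 13 GATA family genes and cofactors 2 had one: TRPS1, a repressor that binds GATA sites, in all 12 libraries, and GATA6 in 11. At TRPS1 the percentile was 29.5 and 59.0 in A442M-FLAG, and between 68.2 and 83.7 in the other 10 libraries. GATA6 had no call in 1 A442M-FLAG library and 41.9 to 77.9 in the other 11, with overlap between groups.

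Of 18 genes listed as Hippo pathway targets, 11 (61.1%) had a member and 2 had one in all 12 libraries. ANKRD1, a classical target of YAP and TEAD, had percentiles from 77.0 to 95.5 over all 12. TEAD4, itself the DNA-binding partner of YAP, had 2.99 to 61.2. The TGF-beta pathway had 9 of 18 genes (50%) with a member and 0 in all 12 libraries. TGFB2, a ligand that is in both lists, was called in 11 libraries, at 48.5 and no call in A442M-FLAG and at 65.7 to 89.1 elsewhere. TGFBR2, a receptor, was called in 11 libraries, at 52.3 to 70.9 in those numbered 1 and at most 20.6 in those numbered 2.

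Luminal epithelial genes had a member at 7 of 22 (31.8%), with 1 in all 12 libraries. TFF1, a secreted peptide that estrogen induces, had 68.8 to 96.3. KRT19, a luminal keratin, had 91.8 to 96.5 in libraries numbered 1 and 51.9 to 83.2 in the 5 numbered 2 that called it, with no call in G444E-FLAG replicate 2. Basal epithelial genes had a member at 4 of 16 (25%), mesenchymal genes at 7 of 18 (38.9%) and AP-1 family genes at 2 of 11 (18.2%). None of these was in all 12 libraries. KLF, SP and EGR factors had 4 of 18, with SP6 alone in all 12.

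The interferon response had 7 of 16 genes (43.8%) with a member, of which IFIT1, B2M and IRF7 had one in all 12 libraries. IFIT1, an antiviral effector, had 49.2 to 77.5 over all 12 libraries. At B2M, the light chain of MHC class I, which shares its region with PATL2, the percentile was 36.7 and 43.5 in A442M-FLAG, and between 62.0 and 78.8 in the other 10 libraries. Replication-dependent histones had 5 of 15 (33.3%), with 3 in all 12: H4C3 at 85.8 to 98.1, and H1-4 and H2BC5, which share a region. Housekeeping genes had 7 of 15 (46.7%) and 2 in all 12, B2M and SDHA. Ubiquitin and proteasome genes had 2 of 18, with PSMC4, an ATPase of the proteasome, at 95.1 to 99.6 in all 12 libraries.

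Members were also counted for lists of other tissues and of the core machinery. T cell genes had 4 of 18, with the receptor IL7R in all 12 libraries at 21.9 to 75.3, erythroid genes 2 of 16, neuronal genes 2 of 15, with SNAP25, a protein of synaptic vesicle fusion, in all 12 at 84.4 to 97.1, and muscle genes 1 of 15. Cell cycle genes had 4 of 19 and ribosomal protein genes 3 of 20, none in all 12 libraries. With at most 22 genes a list, these shares are descriptions and were not tested.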

How the data were processed

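GATA3 ChIP-seq peak lists of 12 libraries, 6 groups of 2, were used, grouped by the genotype in the labels; samples with an empty vector were not analysed here. Per the submitters' processing notes, the authors used MACS2 2.1.4 and FastQC with hg38; the aligner, control, filters and read depth: not given in the sources used here. Deposited lists hold peaks called per library, with a score per peak that is the authors' own value on a scale the files do not name, used here only to rank peaks within a list. In each list, 89.1% to 92.0% of peak numbers were present. Coordinates are 1-based. Genes and promoters came from RefSeq tables of GRCh38.p14, the hg38 assembly (20033 protein-coding genes on the numbered chromosomes, X and Y; strand for 15841 from the promoter table).

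Peaks were merged at 1 bp overlap (Python 3.11.15, pandas 2.3.3, numpy 2.4.6, scipy 1.17.1; matplotlib 3.10.9). Groups were compared by exact permutation of labels within genotype or tag state, two-sided, with Benjamini-Hochberg adjustment over 12 contrasts; single regions by Fisher's exact test, adjusted over every region where an unadjusted p of 0.05 was attainable. For the interactions the mean tag effect was subtracted first, and all exchanges of tag labels within genotype were then counted. Exact there means only this full count of arrangements. The p-values of interactions and of differences within libraries were not adjusted. The scripts were tested on simulated data. The main tests did not use the replicate number; a repeat exchanged labels only within a number. The data, not the labels, tie same-number samples together: replicate 1 minus replicate 2 correlated at 0.161 to 0.329 over the 15 pairs of groups. Alternatives were other windows (500 bp, 5 kb), scores of at least 10, lists of equal length, calls covering 50% of a region, 3 or more libraries, the replicate block and each library left out.

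Members and lists were chosen with earlier results of these data known. Named were regions from the 10 strongest called in all 12 libraries, 1 of which is not reported here, regions from the 4 strongest of each one-sided comparison, members of each of the 18 gene lists (up to 3, those called in most libraries), and GATA3; a rule for regions past Fisher's test named none. Promoter windows on chromosome 8 were not printed.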

Additional observations from a re-analysis of the deposited data

Results flagged for a closer look

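The difference between mutants and WT in the median percentile of gene-end regions was not the same in both tag states. It was 0.34 points with the tag and -5.77 points without it, an interaction of -6.11. The exact permutation test, two-sided and not adjusted, gave p = 0.0278, and p = 0.0625 with the replicate block. The untagged WT libraries, at 40.6 and 45.8, were the highest of their replicate number, and they had the shortest lists, 28890 and 25248 peaks. With all lists cut to equal length the interaction was -6.71 (exact permutation test, p = 0.037).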

How the results depend on the processing

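Apart from leaving out libraries, 172 of the repeated results did not change their call or, for counts without a test, lay within 1.5 times the value reported. Of the others, 13 lost the call or were lower counts, 4 gained it or were higher counts, and 5 changed sign, none of these past a test. With a 500 bp window the interaction in percentile was -3.99 and the log2 width ratio 0.0506, both no longer called. With 5 kb the share in mutants minus WT was 0.0721 points, the percentile in A442M minus WT 0.13 and the width ratio 0.0028. With scores of at least 10, G444E not G444E-FLAG fell to 9 regions. With lists of equal length, FLAG minus untagged was -0.22 points in share and -0.0599 in log2 number, and mutants minus WT -0.0748 in log2 number. The one-sided counts then were 65 for A442M not WT, 66 for WT not A442M, 42 for A442M-FLAG not WT-FLAG, 34 for G444E-FLAG not WT-FLAG, 25 for WT-FLAG not G444E-FLAG, 149 for WT-FLAG not WT, 134 for WT not WT-FLAG, 96 for A442M-FLAG not A442M, 30 for G444E-FLAG not G444E and 28 for G444E not G444E-FLAG. With 3 or more libraries, starts minus far ends in percent called was -4.97 (p = 0.0444, exact permutation test), WT not A442M gave 8 regions and A442M-FLAG not WT-FLAG 43. The replicate block left the interaction at -6.11 with p = 0.0625 (exact permutation test) and ended no other call. The cause of these changes was not tested. Leaving out each library gave -6.55 to -4.30 for starts minus far ends in percent called, 0.0399 to 0.0580 for the width ratio, -8.77 to -3.37 for the interaction in percentile, -0.00800 to 0.278 for the log2 number in mutants minus WT, and in share -0.134 to 0.740 for G444E minus WT and -0.452 to 0.289 for mutants minus WT. Gene-end minus other percentile lay between -15.6 and -14.3 and starts minus far ends between -14.0 and -12.7, both called in all 12 leave-outs. One-sided counts need both libraries of a group and were not repeated this way. Depth is unknown, so an absent call may be a region below a list's threshold.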
